A study of Arabidopsis thaliana with 12 samples.

Results

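The auxin response gene families of Arabidopsis thaliana were followed in rosette leaves of plants lacking the kinase CDK8, most JAZ repressors, or both. Members were chosen by text: every gene whose function line in the deposited count table mentions auxin or describes it as inducible by indole-3-acetic acid. That text found 180 rows of 33323. Leaving out 2 by name (AT2G46370 and AT5G13320) gave 178 auxin genes. They comprise 79 SAUR genes, 17 Aux/IAA genes, 25 ARF genes, 17 GH3 genes and 40 others, among them carriers and receptors. Families follow the same text, which puts IAA13 among the others, so family counts need not cover a whole family.

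Rosettes without roots were taken from Col-0 (wild type), cdk8-1, jazD and jazDcdk8-1 plants that had grown 18 days on peat and 7 days in soil, with 16 h of light at 20 °C. Each of the 3 libraries per genotype came from its own pool of about 20 plants, and the genotypes shared a tray. The line cdk8-1 carries a mutation in CDK8, a kinase that joins the Mediator complex of RNA polymerase II. The line jazD combines mutations in most genes for JAZ proteins, which hold back the transcription factors of jasmonate defense, and jazDcdk8-1 carries both sets. Each mutant is 1 line, so an effect of the named mutations cannot be told apart from other differences of that line.

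Auxin works by removing repressors. It binds TIR1/AFB receptors together with Aux/IAA proteins, which are then degraded, and the ARF transcription factors they had held back become active. Aux/IAA, SAUR and GH3 genes are the classic early targets: Aux/IAA proteins restore the repression, SAUR proteins promote cell expansion, and GH3 enzymes attach amino acids to auxin and other acids. PIN and AUX1/LAX proteins carry auxin out of and into cells.

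Library depth ran from 17583467 to 21030374 counts. CDK8 itself lay between 10.3 and 12.1 TPM (a transcript level corrected for length and depth) in the Col-0 and between 11.4 and 11.9 TPM in the jazD libraries, against 1.51 to 1.71 TPM in cdk8-1 and 1.7 to 2.12 TPM in jazDcdk8-1. JAZ1, JAZ2 and JAZ6 were each at most 3.65 TPM in every library with the jazD mutations and at least 5.67 TPM in every other. The tissue label held: of 4 root markers, EXPA7 and RHD6 had 0 counts in all 12 libraries, COBL9 had 1 count in 1 library, and PIN2 had 2 to 7 counts per library, at most 0.349 CPM. The flower genes AP1, AP3, PI and LFY stayed at or below 0.67 CPM in each. CPM are counts scaled to library size with TMM factors. In such bulk samples, fewer cells of a type and less RNA per cell cannot be told apart.

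Of the 178 auxin genes, 112 had enough counts to be tested and 66 did not. By family, 46 of 79 SAUR, 11 of 17 Aux/IAA, 16 of 25 ARF, 9 of 17 GH3 and 30 of 40 other genes were tested. No count was seen in any library for 22 members. Those include all 9 untested ARF genes, ARF12 to ARF15, ARF20 to ARF23 and AT1G33190. The most abundant members in Col-0 were AT1G56220 at 336 TPM and DRM2 at 145 TPM, which belong to a dormancy and auxin associated family. AIR12 at 116 TPM, SAUR16 at 111 TPM, IAA9 at 99.2 TPM, SAUR14 at 94.7 TPM and ARF2 at 79.8 TPM followed. GH3 genes were lower, led by GH3.10 at 22.8 TPM.

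The region upstream of several auxin genes is shown here because IAA19, IAA5 and GH3.3 all fell in jazD plants that had also lost CDK8, while SAUR22 did the opposite. Each line gives the 250 bases before the annotated gene start (RefSeq, TAIR10.1), 5′ to 3′ on the gene's strand. Capitals mark TGTCTC, the auxin response element to which ARF proteins bind, its variant TGTCGG, and CACGTG, the G-box that PIF and MYC factors bind, on either strand. GAGACA and CCGACA are the first and second of these read on the other strand. CACGTG can share its last bases with a following TGTCTC or TGTCGG, and no match marked here overlaps another.
IAA19, chr3:5263751-5264000, plus strand: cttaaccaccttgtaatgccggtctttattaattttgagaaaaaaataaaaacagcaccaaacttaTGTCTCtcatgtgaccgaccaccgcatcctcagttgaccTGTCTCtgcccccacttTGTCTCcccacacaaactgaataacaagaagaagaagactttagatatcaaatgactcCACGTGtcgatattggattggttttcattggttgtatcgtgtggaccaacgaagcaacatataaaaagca
IAA5, chr1:5366498-5366747, minus strand: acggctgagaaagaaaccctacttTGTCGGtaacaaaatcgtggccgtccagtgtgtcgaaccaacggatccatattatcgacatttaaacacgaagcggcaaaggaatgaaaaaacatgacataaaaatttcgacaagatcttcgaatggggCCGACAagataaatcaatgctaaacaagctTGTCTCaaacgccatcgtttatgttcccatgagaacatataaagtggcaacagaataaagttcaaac
GH3.3, chr2:9866563-9866812, minus strand: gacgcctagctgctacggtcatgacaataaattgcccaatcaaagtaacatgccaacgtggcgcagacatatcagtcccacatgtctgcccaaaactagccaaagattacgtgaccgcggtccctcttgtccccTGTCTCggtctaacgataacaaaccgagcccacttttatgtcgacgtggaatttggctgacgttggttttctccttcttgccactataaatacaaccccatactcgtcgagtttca
SAUR22, chr5:5975088-5975337, minus strand: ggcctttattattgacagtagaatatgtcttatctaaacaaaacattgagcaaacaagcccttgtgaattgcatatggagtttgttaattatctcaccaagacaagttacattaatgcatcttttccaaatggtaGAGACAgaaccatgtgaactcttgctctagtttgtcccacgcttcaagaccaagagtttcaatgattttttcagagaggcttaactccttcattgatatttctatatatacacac

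IAA19 held 3 copies of the element TGTCTC, which started 184, 145 and 128 bases upstream, and the G-box lay 70 bases upstream. In IAA5 the element lay 67 bases upstream, and its variant lay 226 bases upstream and, reversed, 97 bases upstream. GH3.3 held the element 116 bases upstream, and SAUR22 held it reversed, 115 bases upstream. Among all tested genes whose promoter could be read, 1999 of 18986 (10.5%) held the element, 4.64% its variant and 7.33% the G-box. The element stood in 4 of 11 tested Aux/IAA promoters, 3 of 9 GH3, 7 of 46 SAUR and 1 of 16 ARF promoters. The 4 printed genes all held the element, but other members changed the same way without it. In jazDcdk8-1 against jazD, IAA2, IAA29, IAA11, GH3.10 and SAUR31 fell, and SAUR21 and SAUR23 rose, with no copy in these bases. With a copy, SAUR15 and AT5G35735 fell, and SAUR20, GH3.5 and AFB5 rose. A match describes these letters and does not show binding.

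Each family held genes that rose and genes that fell in at least 1 comparison. A gene is called where its Benjamini-Hochberg adjusted p over all 19059 tested genes was below 0.05 in edgeR's quasi-likelihood test. In cdk8-1 against Col-0, 23 auxin genes were higher and 24 lower, 42% of the 112 tested. Over all genes the share called was 25.5%, with 11.7% higher and 13.8% lower. In jazD against Col-0, 23 were higher and 27 lower (44.6%), close to the 42.8% of all genes, of which 21.8% were higher and 20.9% lower.

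In jazDcdk8-1 against jazD, 24 auxin genes were higher and 33 lower (50.9%), where 35.8% of all genes were called, 16.9% higher and 19.0% lower. In jazDcdk8-1 against Col-0, 24 were higher and 30 lower (48.2%), against 32.4% of all genes, 16.3% higher and 16.1% lower. The median log2 fold change of the tested members was between -0.10 and 0.00 in these 4 comparisons, and that of all genes between 0.00 and 0.01. With limma on log2(TPM + 1), the split became 29 higher and 19 lower in cdk8-1, 19 and 35 in jazD, and 37 and 28 in jazDcdk8-1 against jazD. Of all called genes, 69.4%, 37.9% and 75.7% were higher on that scale, against 45.9%, 51% and 47.1% from TMM-scaled counts. Counts scaled by library total alone, without TMM factors, gave 66.8%, 44.5% and 63.5%. In jazDcdk8-1 against jazD, the log2(TPM + 1) scale moved the median of all genes to 0.13.

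**Figure D1:**
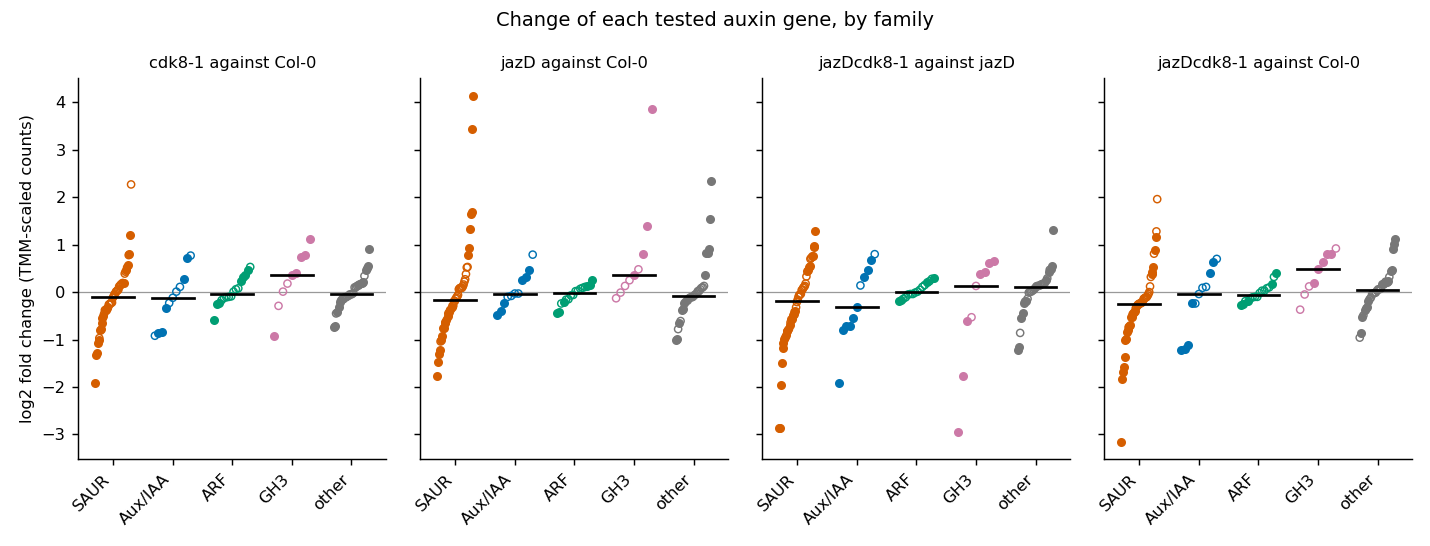
Log2 fold change of every tested auxin gene (points, 1 per gene, sorted within its family) in 4 comparisons of genotypes. Filled points were called, open points were not, and black bars are family medians. SAUR genes spread most widely, from -2.86 to 1.29 in jazDcdk8-1 against jazD, while ARF genes stay within 0.59 of 0 in all 4 panels.

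Among the Aux/IAA repressors, IAA19 and IAA29 were lower wherever CDK8 was missing. IAA19, which acts in hypocotyl growth and tropisms, measured 5.19, 5.47 and 5 CPM in Col-0 and 3.09, 3.1 and 2.45 CPM in cdk8-1. It measured 3.98, 3.83 and 4.09 CPM in jazD and 2.45, 2.01 and 2.36 CPM in jazDcdk8-1. Both groups without CDK8 lay below both groups with it. From Col-0 to cdk8-1 the log2 fold change of IAA19 was -0.86 ± 0.14 (SE, adjusted p = 8.16e-05). From jazD to jazDcdk8-1 it was -0.80 ± 0.15 (adjusted p = 0.000274).

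IAA29, a gene known to respond to shade, measured 5.92, 6.37 and 6.8 CPM in Col-0 against 3.49, 4.24 and 2.88 CPM in cdk8-1. It measured 5.17, 3.1 and 5.45 CPM in jazD and 3.34, 2.63 and 2.32 CPM in jazDcdk8-1. The last pair overlapped through jazD replicate 2. IAA29 fell by 0.85 ± 0.18 on the log2 scale in cdk8-1 (adjusted p = 0.00135) and by 0.72 ± 0.20 in jazDcdk8-1 against jazD (adjusted p = 0.00732). On the log2(TPM + 1) scale the latter change was -0.45, and that of IAA19 was -0.52.

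IAA2, an early auxin gene of seedlings, was highest in jazD. It averaged 30.5 ± 3.12 CPM (SD, n = 3) in Col-0, 24.1 ± 2.12 in cdk8-1, 42.3 ± 4.28 in jazD and 26 ± 0.187 in jazDcdk8-1. It rose by 0.47 ± 0.08 in jazD against Col-0 (adjusted p = 4.53e-05) and fell by 0.71 ± 0.08 in jazDcdk8-1 against jazD (adjusted p = 3.98e-07). These comparisons share the jazD libraries, here and for every gene below, so their values are not independent. IAA5, another auxin-induced repressor gene, measured 2.23, 1.03 and 2.07 CPM in jazD and 0.334, 0.383 and 0.648 CPM in jazDcdk8-1, with no overlap. Its log2 fold change was -1.91 ± 0.37 there (adjusted p = 0.000345) and -1.22 on the log2(TPM + 1) scale.

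IAA28 and IAA14, repressors known from lateral root formation, went the other way. IAA28 averaged 5.32 ± 0.632 CPM in Col-0, 8.8 ± 0.55 in cdk8-1, 5.05 ± 0.732 in jazD and 6.98 ± 0.556 in jazDcdk8-1. It rose by 0.72 ± 0.12 (adjusted p = 9.09e-05) and by 0.47 ± 0.13 (adjusted p = 0.00525) without CDK8. IAA14 rose by 0.67 ± 0.10 in jazDcdk8-1 against jazD (adjusted p = 1.71e-05), from 8.33 ± 0.75 to 13.2 ± 1.45 CPM. Its call in cdk8-1 against Col-0 (adjusted p = 0.0484) was lost in 9 of 20 alternatives. In all, 2 of 11 tested Aux/IAA genes rose and 3 fell in cdk8-1, 3 rose and 3 fell in jazD, and 3 rose and 6 fell in jazDcdk8-1 against jazD, or 45.5%, 54.5% and 81.8% beside 25.5%, 42.8% and 35.8% of all genes. The 2 rises in cdk8-1 became 1 in each of 7 of the 12 fits that left out 1 library, and the 3 falls in jazD (IAA18, IAA19 and IAA29) became 1 without Col-0 replicate 2 or 3 or jazD replicate 1 or 2. IAA11 fell by 0.55 ± 0.13 in jazDcdk8-1 against jazD (adjusted p = 0.00164), or by 0.35 on the log2(TPM + 1) scale. IAA1, a classic early auxin gene, was not called in any comparison, with means between 9.94 and 11 CPM.

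GH3 enzymes formed sets with different profiles. GH3.3, which conjugates auxin to amino acids and is strongly auxin-induced, measured 5.34, 6.67 and 3.75 CPM in Col-0 and 3.04, 2.79 and 2.5 CPM in cdk8-1. It measured 13.3, 14.8 and 13.4 CPM in jazD and 3.17, 3.97 and 4.96 CPM in jazDcdk8-1. All jazD libraries lay far above the rest, and the jazDcdk8-1 libraries overlapped with Col-0. GH3.3 rose 2.64-fold in jazD against Col-0 (log2 1.40 ± 0.15, adjusted p = 1.45e-07) and fell 3.4-fold in jazDcdk8-1 against jazD (log2 -1.77 ± 0.16, adjusted p = 1.16e-08). In cdk8-1 its log2 fold change was -0.92 ± 0.19 (adjusted p = 0.000917), or -0.54 on the log2(TPM + 1) scale.

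GH3.6 and GH3.17, which also conjugate auxin, were instead higher without CDK8. GH3.17 measured between 4.1 and 4.27 CPM in Col-0 and between 6.62 and 7.48 CPM in cdk8-1. It measured between 4.26 and 4.79 CPM in jazD and between 6.99 and 7.51 CPM in jazDcdk8-1. Its groups separated by CDK8 alone, with rises of 0.74 ± 0.11 (adjusted p = 2.54e-05) and 0.66 ± 0.11 (adjusted p = 5.15e-05) on the log2 scale. GH3.6 averaged 28.2 ± 0.86 CPM in Col-0, 48.7 ± 7 in cdk8-1, 36.3 ± 2.57 in jazD and 49 ± 2.99 in jazDcdk8-1. The rise was 1.73-fold in cdk8-1 (adjusted p = 2.61e-07), and adding the cdk8-1 mutation to jazD gave a rise of 1.35-fold (adjusted p = 0.000206).

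AT5G13370, a GH3 gene given here by its locus, rose by 0.36 ± 0.09 (adjusted p = 0.00714) and 0.61 ± 0.10 (adjusted p = 3.1e-05) without CDK8 in the same comparisons. GH3.10, also called DFL2 and linked to hypocotyl growth in light, averaged 41.2 ± 1.38 CPM in Col-0, 41.5 ± 3.52 in cdk8-1, 72.2 ± 2.33 in jazD and 47.5 ± 0.419 in jazDcdk8-1. It rose by 0.81 ± 0.06 in jazD (adjusted p = 1.72e-10) and fell by 0.60 ± 0.06 when CDK8 was also lost (adjusted p = 2.17e-08). AT5G51470, named in the table as a GH3 family protein, summed to 20 counts in Col-0, 45 counts in cdk8-1, 279 counts in jazD and 39 counts in jazDcdk8-1. It rose 14.6-fold in jazD (adjusted p = 6.34e-10) and fell 7.73-fold in jazDcdk8-1 against jazD (adjusted p = 1e-08). On the log2(TPM + 1) scale the changes were 1.75 and -1.52, against 3.87 and -2.95 from counts. AT5G51470, GH3.6, SAUR30 and AFB5 are the tested members between 17 and 24 Mb of chromosome 5. That stretch holds 6.71% of tested genes but 42 of the 84 called at least 4-fold lower in jazD, and its part in the results for these 4 members was not tested.

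GH3.5, which conjugates auxin and salicylate, averaged 7.26 CPM in Col-0 and 11.2 CPM in jazDcdk8-1, a rise of 0.63 ± 0.12 (adjusted p = 0.000278). GH3.2 was not called in any comparison, and GH3.1 had too few counts to be tested.

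Over the family, 5 of 9 tested GH3 genes rose and 1 fell in cdk8-1, 4 rose and 0 fell in jazD, and 4 rose and 3 fell in jazDcdk8-1 against jazD. Called were thus 66.7%, 44.4% and 77.8%, against 25.5%, 42.8% and 35.8% over all genes. The 5 rises in cdk8-1 became 3 without Col-0 replicate 2. The summed GH3 level was 112 ± 3.89 CPM in Col-0, 140 ± 11.6 in cdk8-1, 166 ± 4.02 in jazD and 150 ± 6.32 in jazDcdk8-1, with Col-0 below every other library.

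**Figure D2:**
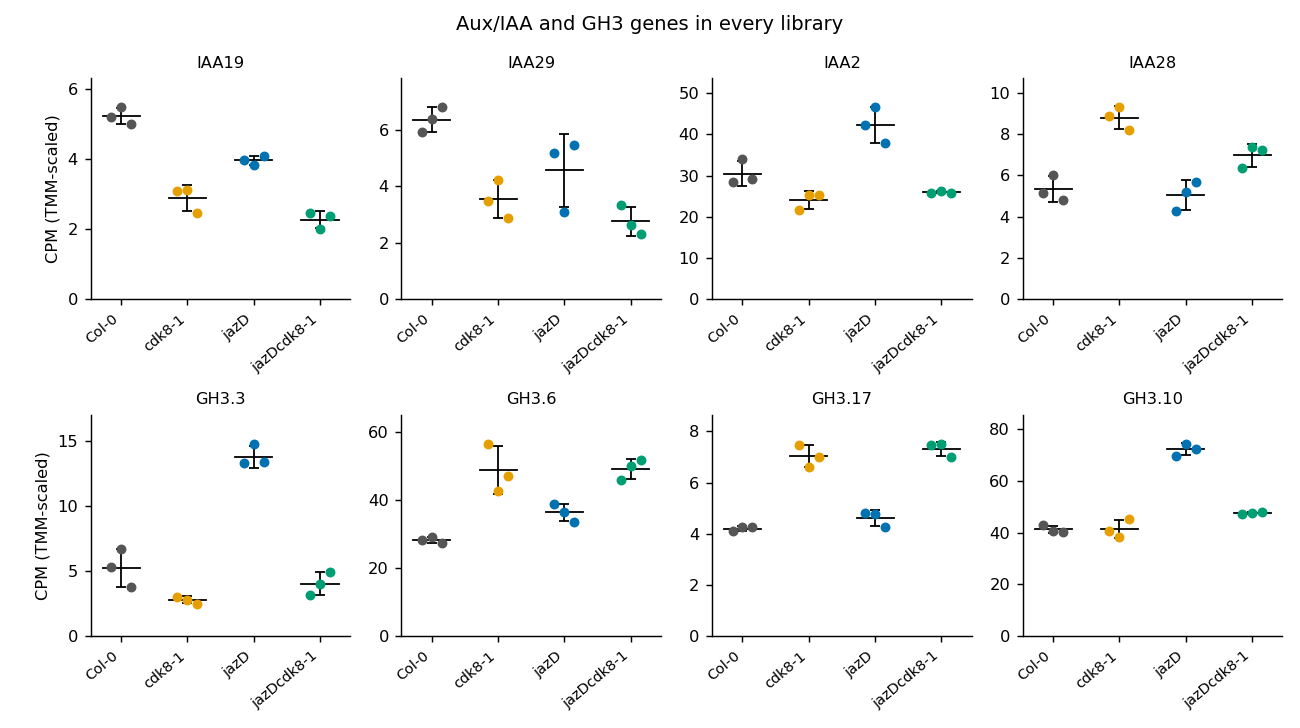
Level in CPM (TMM-scaled) of 4 Aux/IAA and 4 GH3 genes in each of the 12 libraries (points), with the mean and SD of each genotype (bars, n = 3). IAA19 and GH3.17 separate by CDK8, in opposite directions, whereas GH3.3 and GH3.10 are highest in jazD.

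SAUR genes, small proteins that promote cell expansion, moved in both directions. In cdk8-1, 5 of 46 tested rose and 12 fell, in jazD 7 rose and 14 fell, and in jazDcdk8-1 against jazD 9 rose and 16 fell. These are 37%, 45.7% and 54.3% of the tested SAUR genes, where 25.5%, 42.8% and 35.8% of all genes were called. Without cdk8-1 replicate 3 the 12 falls became 7, and without cdk8-1 replicate 2 the 5 rises became 3. The family's summed level was 370 ± 14.4 CPM in Col-0, 344 ± 18.8 in cdk8-1, 336 ± 5.74 in jazD and 317 ± 5.04 in jazDcdk8-1. Summed as TPM it averaged 900, 864, 747 and 788, so that jazD, not jazDcdk8-1, was then lowest.

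SAUR31 separated the libraries by CDK8 alone. It measured 31.8, 31.1 and 30.3 CPM in Col-0 against 15.8, 16.6 and 13.7 CPM in cdk8-1. It measured 32.8, 28.3 and 28.2 CPM in jazD against 15.2, 15 and 16.4 CPM in jazDcdk8-1. The fall was 2.02-fold in cdk8-1 (log2 -1.01 ± 0.08, adjusted p = 2.69e-09). Between jazD and jazDcdk8-1 it was 1.91-fold (log2 -0.94 ± 0.08, adjusted p = 4.44e-09). Its libraries overlapped between jazD and Col-0.

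SAUR6 fell with either mutation and was lowest with both. It averaged 23.9 ± 4.49 CPM in Col-0, 11.4 ± 0.746 in cdk8-1, 14.2 ± 0.516 in jazD and 8.01 ± 0.345 in jazDcdk8-1. The log2 fold change was -1.07 ± 0.10 in cdk8-1 (adjusted p = 1.24e-07) and -0.75 ± 0.10 in jazD (adjusted p = 4.3e-06). Against Col-0, jazDcdk8-1 was 2.99-fold lower (adjusted p = 3.98e-10). SAUR14 and SAUR15, neighbours on chromosome 4, fell by 0.38 ± 0.07 (adjusted p = 0.00025) and 0.54 ± 0.14 (adjusted p = 0.00686) in cdk8-1. In jazDcdk8-1 against jazD they fell by 0.57 ± 0.07 (adjusted p = 9.58e-07) and 0.56 ± 0.15 (adjusted p = 0.00701), the SAUR15 call being lost without jazDcdk8-1 replicate 2.

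SAUR52 and SAUR28 were scarce. SAUR52 measured 0.934, 1.4 and 0.9 CPM in Col-0 and 0.299, 0.362 and 0.192 CPM in cdk8-1, and between 0.0478 and 0.167 CPM in jazDcdk8-1 against 0.786 to 1.03 CPM in jazD. Neither pair overlapped. Its log2 fold changes were -1.91 ± 0.37 (adjusted p = 0.000517) and -2.86 ± 0.47 (adjusted p = 4.91e-05), or -0.87 and -0.96 on the log2(TPM + 1) scale, and a filter of 1 CPM in 3 libraries dropped the gene. SAUR28 fell by 1.32 ± 0.34 in cdk8-1 (adjusted p = 0.00641), a call lost without Col-0 replicate 3.

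SAUR32, SAUR60 and SAUR16 were higher without CDK8. SAUR32, a gene known from the apical hook, averaged 10.5 ± 0.38 CPM in Col-0, 15.5 ± 1.37 in cdk8-1, 9.66 ± 0.308 in jazD and 14.1 ± 0.58 in jazDcdk8-1. It rose by 0.57 ± 0.08 (adjusted p = 1.67e-05) and 0.55 ± 0.08 (adjusted p = 2.13e-05). SAUR60 rose by 0.80 ± 0.19 (adjusted p = 0.00298) and 0.96 ± 0.25 (adjusted p = 0.00466), and fell by 1.30 ± 0.24 in jazD against Col-0 (adjusted p = 0.000158). SAUR16, the most abundant SAUR gene per length in Col-0, rose by 0.47 ± 0.06 in jazDcdk8-1 against jazD (adjusted p = 2.08e-06).

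The SAUR19 to SAUR24 genes lie together on chromosome 5, between 5962773 and 5984308 (TAIR10.1). They are the best studied of the family: their proteins block PP2C.D phosphatases and so keep the plasma membrane proton pump active, which loosens the wall. Their coding sequences were 87.7% to 95.2% identical over 15 pairs, so the division of reads among them is uncertain. Of the 6 genes, 5 fell in jazD against Col-0 and 0 rose, and 4 rose and 0 fell in jazDcdk8-1 against jazD. Over all genes, 20.9% fell and 21.8% rose in jazD, and 16.9% rose and 19.0% fell in jazDcdk8-1 against jazD. In jazDcdk8-1 against Col-0, 4 of the 6 were lower and 0 higher, with a median log2 fold change of -0.58, where 16.1% of all genes were lower. In cdk8-1 against Col-0 only SAUR19 was called, a call lost in 13 of 20 alternatives. Of 4 dividing-cell markers, 3 were lower in jazD and 4 of 4 higher in jazDcdk8-1 against jazD, with median log2 fold changes of -0.34 and 0.39. Of 4 green leaf markers, 3 were lower in jazD, among them RCA at -0.71 and CA1 at -0.79, and those 2 were higher in jazDcdk8-1 against jazD, at 0.35 and 0.28. The part of either list in the result was not tested.

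SAUR23 had the largest rise of the 6 in jazDcdk8-1 against jazD. It measured 5.24, 4.82 and 4.7 CPM in Col-0, 4.89, 5.17 and 4.9 CPM in cdk8-1, 1.91, 1.52 and 1.9 CPM in jazD, and 3.89, 4.26 and 4.77 CPM in jazDcdk8-1. All jazD libraries lay below all others, and jazDcdk8-1 overlapped with Col-0. SAUR23 fell 2.78-fold in jazD (log2 -1.47 ± 0.15, adjusted p = 7.96e-08) and rose 2.44-fold in jazDcdk8-1 against jazD (log2 1.29 ± 0.15, adjusted p = 9.87e-07). The effect of losing CDK8 differed between the JAZ backgrounds by 1.27 ± 0.20 on the log2 scale (interaction, adjusted p = 0.000131).

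SAUR22, its neighbour on the other strand, measured 3.01, 3.71 and 3.95 CPM in Col-0, 1.03, 0.884 and 1.24 CPM in jazD, and 1.72, 2.44 and 1.99 CPM in jazDcdk8-1. These 3 groups did not overlap, so jazDcdk8-1 lay between the others. SAUR22 fell 3.39-fold in jazD (adjusted p = 5.52e-07) and rose 1.97-fold in jazDcdk8-1 against jazD (adjusted p = 0.00178), but stayed 1.72-fold below Col-0 (adjusted p = 0.00197). SAUR20 and SAUR21 fell by 1.02 ± 0.12 (adjusted p = 8.96e-07) and 1.21 ± 0.13 (adjusted p = 2.34e-07) in jazD, and rose by 0.76 ± 0.13 (adjusted p = 6.39e-05) and 0.77 ± 0.14 (adjusted p = 0.000184) in jazDcdk8-1. SAUR50, outside the cluster, had the same profile at a smaller size: it fell by 0.50 ± 0.10 in jazD (adjusted p = 0.00029) and rose by 0.44 ± 0.10 in jazDcdk8-1 against jazD (adjusted p = 0.00154). SAUR19 fell in jazD as well, by 0.75 ± 0.19 (adjusted p = 0.00258), and its libraries overlapped between jazD and jazDcdk8-1. SAUR24 departed from the others: it was called only in jazDcdk8-1 against Col-0, at -1.84 on the log2 scale (adjusted p = 0.0041). Over the alternatives that change ranged from -2.26 to -1.58.

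The SAUR61 to SAUR68 cluster on chromosome 1 moved less. Of its 6 tested genes, 3 were called lower in jazD: SAUR62 at -0.32, SAUR64 at -0.42 and SAUR65 at -0.64 on the log2 scale. Over all genes, 20.9% were lower in jazD. Leaving out either jazD replicate 2 or Col-0 replicate 1 ended the SAUR62 call. Coding sequences in the cluster were up to 90.7% identical, so the division of reads is uncertain there too. SAUR64 and SAUR65 were also lower in jazDcdk8-1 against Col-0, at -0.52 each, a call that SAUR65 lost without Col-0 replicate 1. None of the 6 was called in cdk8-1 or in jazDcdk8-1 against jazD, where 25.5% and 35.8% of all genes were called. SAUR63 was called in none of the comparisons.

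**Figure D3:**
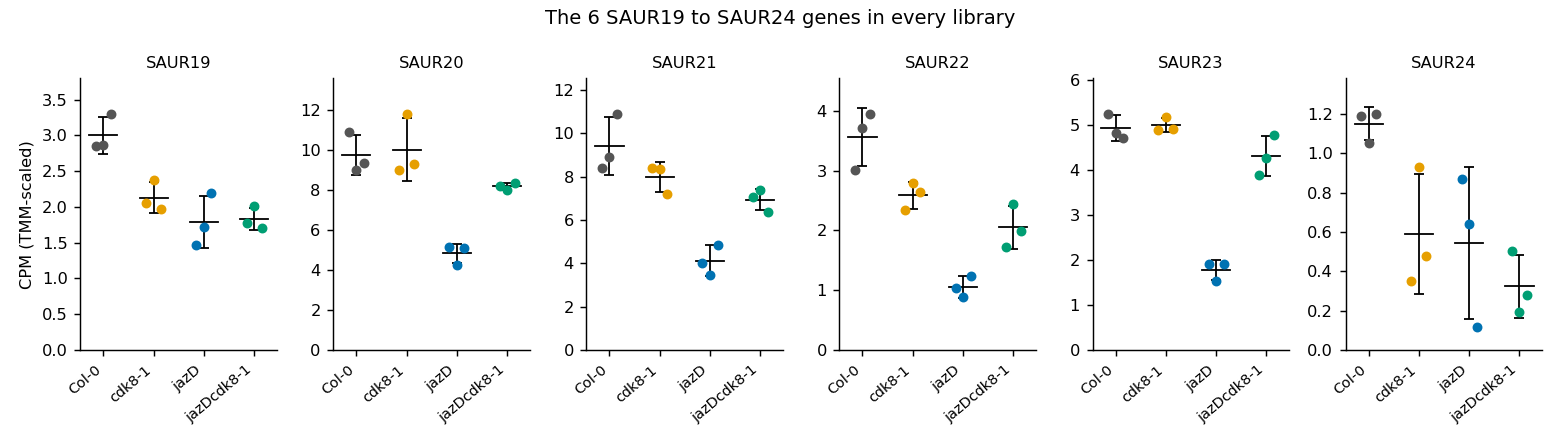
Level in CPM (TMM-scaled) of the 6 SAUR19 to SAUR24 genes in each of the 12 libraries (points), with the mean and SD of each genotype (bars, n = 3). SAUR20 to SAUR23 are lowest in jazD and higher in jazDcdk8-1. SAUR19 and SAUR24 were not called between those groups, and SAUR24 was called only in jazDcdk8-1 against Col-0, as lower.

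A smaller set of SAUR genes was high in jazD. SAUR71, expressed in the stomatal lineage, measured 1.82, 1.76 and 1.65 CPM in Col-0, 4.79, 5.6 and 6.57 CPM in jazD, and 2.34, 2.63 and 2.5 CPM in jazDcdk8-1. It rose 3.23-fold in jazD (adjusted p = 6.03e-08) and fell 2.26-fold in jazDcdk8-1 against jazD (adjusted p = 5.97e-06). SAUR42 summed to 5 counts in Col-0, 9 counts in cdk8-1, 89 counts in jazD and 13 counts in jazDcdk8-1, a log2 change of 4.14 ± 0.51 in jazD (adjusted p = 9.31e-07) that ranged from 2.42 to 5.65 over the alternatives. SAUR70 averaged 0.371 CPM in Col-0, 1.17 CPM in jazD and 0.297 CPM in jazDcdk8-1, with a rise of 1.64 ± 0.32 in jazD (adjusted p = 0.000268), or 0.61 on the log2(TPM + 1) scale. SAUR51 rose by 1.33 ± 0.21 in jazD (adjusted p = 3.24e-05), and its libraries overlapped between jazD (3.9 ± 0.76 CPM) and jazDcdk8-1 (3.48 ± 0.341 CPM). Of 6 touch and early stress genes, 5 were likewise higher in jazD and 5 lower in jazDcdk8-1 against jazD. Over all genes, 21.8% were higher in jazD and 19.0% lower in jazDcdk8-1 against jazD. The 6 genes had median log2 fold changes of 1.11 and -1.62, and their part was not tested.

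ARF transcription factor genes had the narrowest range of changes, within 0.59 of 0 on the log2 scale in the 4 comparisons of genotypes. The ARF family had 4 rises and 3 falls in cdk8-1, 3 and 3 in jazD, and 2 and 2 in jazDcdk8-1 against jazD, out of 16 tested. The shares called were 43.8%, 37.5% and 25%, beside 25.5%, 42.8% and 35.8% of all genes. ARF11, counted among the repressing ARF proteins, measured 15.8, 15.1 and 16.2 CPM in Col-0 and 10.2, 9.56 and 11.5 CPM in cdk8-1. It averaged 14.2 ± 0.514 CPM in jazD and 13.7 ± 0.405 in jazDcdk8-1, whose libraries overlapped. The fall in cdk8-1 was 0.59 ± 0.08 on the log2 scale (adjusted p = 8.81e-06), and the interaction, that is how far this effect differed in the jazD background, was 0.54 ± 0.11 (adjusted p = 0.00175).

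ARF4, a repressing ARF that helps set the lower leaf side, rose by 0.46 ± 0.06 in cdk8-1 (adjusted p = 1.2e-05), from 25.7 ± 0.737 to 35.4 ± 1.76 CPM. ARF7, an activator of lateral root and tropism genes, rose by 0.31 ± 0.05 (adjusted p = 0.000148). ARF8, an activator of flower and fruit growth, fell by 0.41 ± 0.05 in jazD (adjusted p = 2.84e-06) and rose by 0.22 ± 0.05 in jazDcdk8-1 against jazD (adjusted p = 0.00294). That rise was 0.36 on the log2(TPM + 0.1) scale. ARF18 and ARF9, of the repressing class, fell in different mutants: ARF18 by 0.43 ± 0.09 in jazD (adjusted p = 0.000788), and ARF9 by 0.26 ± 0.06 in cdk8-1 (adjusted p = 0.00154). The ARF9 call was lost on both log2(TPM + pseudocount) scales, where the change shrank to as little as -0.16. ARF10 rose by 0.37 ± 0.11 in cdk8-1 (adjusted p = 0.0218), a call lost in 3 of 20 alternatives. ARF6, which acts with ARF8, was called in none of the 4 comparisons, with means between 90.3 and 97.5 CPM. Of these family counts, the 4 rises in cdk8-1 became 2 without Col-0 replicate 1 or 3 or cdk8-1 replicate 1, and the 3 falls became 5 without cdk8-1 replicate 1. The 2 rises in jazDcdk8-1 against jazD became 1 without jazD replicate 2 or jazDcdk8-1 replicate 2 and 4 without jazD replicate 3, and the 2 falls became 1 without jazDcdk8-1 replicate 3.

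Outside these families, DRM2 and AT1G56220 were the most abundant members per length in Col-0, and both were called in all 4 comparisons. DRM2, whose relatives mark dormant buds, measured 57.7, 60 and 68.9 CPM in Col-0 and 28.4, 38.2 and 45.5 CPM in cdk8-1. It measured 304, 329 and 312 CPM in jazD and 123, 128 and 152 CPM in jazDcdk8-1. The 4 groups did not overlap. In jazD it rose 5.06-fold (adjusted p = 6.02e-14). It fell 1.66-fold in cdk8-1 (adjusted p = 3.94e-05) and 2.34-fold between jazD and jazDcdk8-1 (adjusted p = 1.99e-09).

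AT1G56220, of the same family, averaged 171 ± 3.93 CPM in Col-0, 105 ± 4.88 in cdk8-1, 302 ± 14 in jazD and 135 ± 4.82 in jazDcdk8-1. In jazD it rose 1.76-fold (adjusted p = 4.88e-12). Without CDK8 it fell 1.63-fold from Col-0 (adjusted p = 4.93e-10) and 2.23-fold from jazD (adjusted p = 3.16e-14). The members that the table calls only auxin-responsive family proteins, known as DOMON-domain cytochrome b561 proteins, split. AT5G35735 rose 2.94-fold in jazD (adjusted p = 6.46e-14), whereas AT4G12980, AT3G25290 and AT2G04850 fell 2.01-fold (adjusted p = 4.39e-11), 1.99-fold (adjusted p = 0.000827) and 1.58-fold (adjusted p = 1.28e-06).

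Among the carriers, PIN3 followed CDK8. PIN3, an efflux carrier that redirects auxin in tropisms, measured 95.4, 91.8 and 87.4 CPM in Col-0, 131, 130 and 131 CPM in cdk8-1, 83, 85.7 and 85.9 CPM in jazD and 123, 124 and 125 CPM in jazDcdk8-1. Its groups separated by CDK8, with rises of 0.51 ± 0.04 (adjusted p = 1.05e-08) and 0.55 ± 0.04 (adjusted p = 2e-09) on the log2 scale. The influx carrier LAX1 fell by 0.41 ± 0.06 in cdk8-1 (adjusted p = 2.01e-05). PILS3 and PILS5, of a family that holds auxin in the endoplasmic reticulum, rose by 0.91 ± 0.05 (adjusted p = 1.09e-12) and 0.82 ± 0.18 (adjusted p = 0.000871) in jazD. For PILS5 the rise in jazD was 0.45 on the log2(TPM + 1) scale. PILS5 also rose by 0.91 in cdk8-1 (adjusted p = 0.000549) and by 0.90 in jazDcdk8-1 against Col-0 (adjusted p = 0.000448). PILS3 rose less in those comparisons, by 0.19 (adjusted p = 0.00607) and 0.47 (adjusted p = 9.5e-08). The receptor gene AFB5, in the same stretch of chromosome 5, fell by 0.37 ± 0.05 in jazD (adjusted p = 5.23e-06) and rose by 0.43 ± 0.05 in jazDcdk8-1 against jazD (adjusted p = 9.67e-07).

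The effect of losing CDK8 can be set side by side in the JAZ-intact and jazD backgrounds, since cdk8-1 against Col-0 and jazDcdk8-1 against jazD share no library. Of the 112 members, 34 were called in both, and 31 of those in one direction, 13 higher and 18 lower. These 31 made up 66% of the 47 called in cdk8-1 and 54.4% of the 57 called in jazDcdk8-1 against jazD. Over all genes the shares were 54% and 38.4%. Across the 112 genes, which share the same libraries and are not independent, Pearson's r of the log2 fold changes was 0.34 and Spearman's rho 0.52, against 0.52 and 0.45 over all 19059 genes. The interaction was called for 10 higher and 19 lower members (25.9%), against 16.5% of all genes, 8.16% higher and 8.39% lower. With limma on log2(TPM + 1) the member counts became 12 and 13. Of all called interactions, 59.7% were higher on that scale, against 49.3% from counts.

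**Figure D4:**
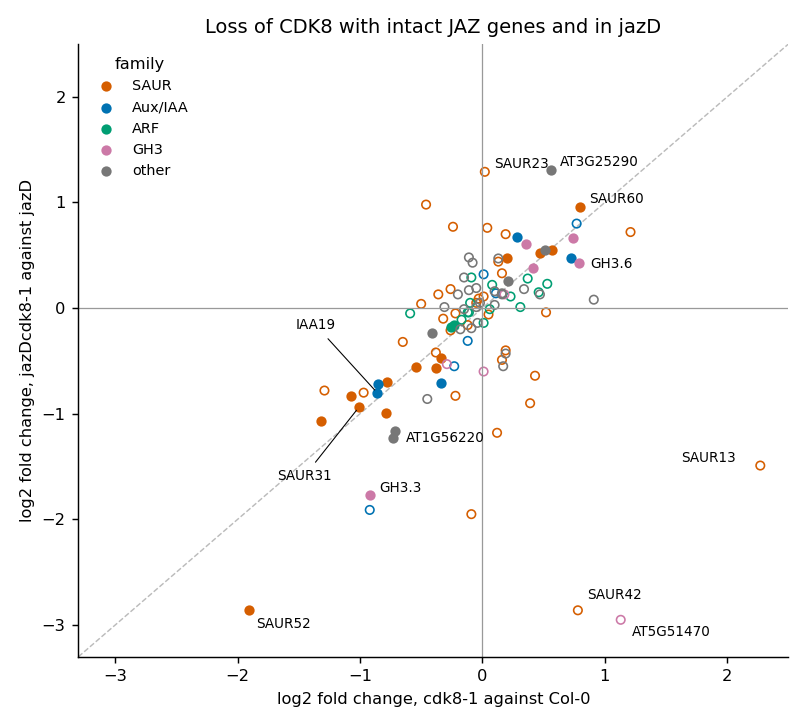
Log2 fold change of each tested auxin gene on losing CDK8 with intact JAZ genes (x axis, cdk8-1 against Col-0) and in jazD (y axis, jazDcdk8-1 against jazD). Filled points were called in the same direction in both, and the dashed line marks equal changes. SAUR31 and IAA19 lie near that line, while SAUR23, SAUR42 and AT5G51470 lie far from it.

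Against Col-0, jazDcdk8-1 kept some changes of each kind. IAA19 and IAA29 were 2.3-fold (adjusted p = 1.39e-06) and 2.32-fold (adjusted p = 3.6e-05) lower. DRM2 remained 2.16-fold higher (adjusted p = 2.86e-08), AT5G35735 2.01-fold (adjusted p = 3.02e-10) and SAUR51 2.24-fold higher (adjusted p = 0.000244). Among tested genes, the SAUR family had 5 rises and 17 falls (47.8% of 46), and the Aux/IAA family 2 and 4 (54.5% of 11). The GH3 family had 5 and 0 (55.6% of 9), and the ARF family 2 and 3 (31.2% of 16). Over all genes 32.4% were called, 16.3% higher and 16.1% lower. The 2 ARF rises became 1 without Col-0 replicate 3 or jazDcdk8-1 replicate 1 or 2. The 4 Aux/IAA falls became 2 without Col-0 replicate 2 or jazDcdk8-1 replicate 1 or 2. The 2 Aux/IAA rises became 1 without Col-0 replicate 1 or 3 or jazDcdk8-1 replicate 2 or 3, and the GH3 falls became 1 without Col-0 replicate 3 or jazDcdk8-1 replicate 3.

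Other genes of auxin metabolism and transport came from a list of 41 that the text rule leaves out, of which 33 were tested. They showed 7 rises and 8 falls in cdk8-1, 14 and 8 in jazD, and 8 and 11 in jazDcdk8-1 against jazD. That is 45.5%, 66.7% and 57.6% of those tested, where 25.5%, 42.8% and 35.8% of all genes were called. In the group of conjugation and breakdown, the 7 tested genes were DAO1, DAO2, ILR1, IAR3, ILL2, ILL3 and ILL6, which oxidize auxin or cleave conjugates. UGT84B1 and UGT74E2 of that group had too few counts to be tested. Each of the 7 was called higher in jazD, where 21.8% of all genes were. Their median log2 fold change was 0.71 against 0.00 over all genes. The call of ILR1 was lost in 9 of 20 alternatives, and that of ILL3 with DESeq2 and without jazD replicate 1. DAO2, a dioxygenase that oxidizes auxin, went from 0.202 CPM in Col-0, a sum of 12 counts, to 8.23 CPM in jazD and 5.37 CPM in jazDcdk8-1. Its log2 change in jazD was 5.30 from counts and 2.92 on the log2(TPM + 1) scale. IAR3 and ILL6, amidohydrolases that cleave conjugates of auxin or jasmonate, rose by 1.14 (adjusted p = 3.23e-12) and 2.05 (adjusted p = 5.33e-15) on the log2 scale. NIT2, NIT3 and CYP79B3, which act in nitrile, indole and glucosinolate metabolism, also rose in jazD. The rise of NIT2 was 2.39 on the log2 scale and 1.57 without jazD replicate 2.

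Genes of transport and of synthesis followed more than 1 profile. The influx carrier AUX1 averaged 102 CPM in Col-0, 105 in cdk8-1, 69.5 in jazD and 105 in jazDcdk8-1, and the efflux carrier ABCB19 averaged 173, 175, 131 and 185 CPM. AUX1 fell by 0.55 in jazD (adjusted p = 3.06e-09) and rose by 0.60 in jazDcdk8-1 against jazD (adjusted p = 1.12e-09). The synthesis gene TAR2 likewise fell by 0.71 in jazD (adjusted p = 2.16e-06) and rose by 0.34 in jazDcdk8-1 against jazD (adjusted p = 0.00764). That rise lost its call without jazDcdk8-1 replicate 2, and jazDcdk8-1 stayed 0.37 below Col-0 (adjusted p = 0.00273). YUC2, which makes auxin in the last step of its main pathway, averaged 2.48 CPM in Col-0, 5.95 in cdk8-1, 2.52 in jazD and 5.34 in jazDcdk8-1. It rose by 1.26 (adjusted p = 5.25e-07) and by 1.08 (adjusted p = 2.98e-06) without CDK8. The receptor gene TIR1 fell by 0.41 (adjusted p = 1.09e-06) and 0.29 (adjusted p = 3.87e-05) in the same comparisons, and PIF4, a factor that promotes growth through auxin genes, by 0.64 (adjusted p = 7.54e-10) and 0.38 (adjusted p = 6.44e-07). In jazDcdk8-1 against jazD the log2(TPM + 1) scale gave -0.15 for TIR1 and -0.23 for PIF4. The other PIF genes of the list differed. PIF7 rose by 0.19 (adjusted p = 0.0145, a call lost without Col-0 replicate 3) and 0.39 (adjusted p = 1.95e-05) without CDK8. PIF5 fell by 0.27 in cdk8-1 (adjusted p = 0.000108) and was not called in jazDcdk8-1 against jazD, at 0.10.

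**Figure D5:**
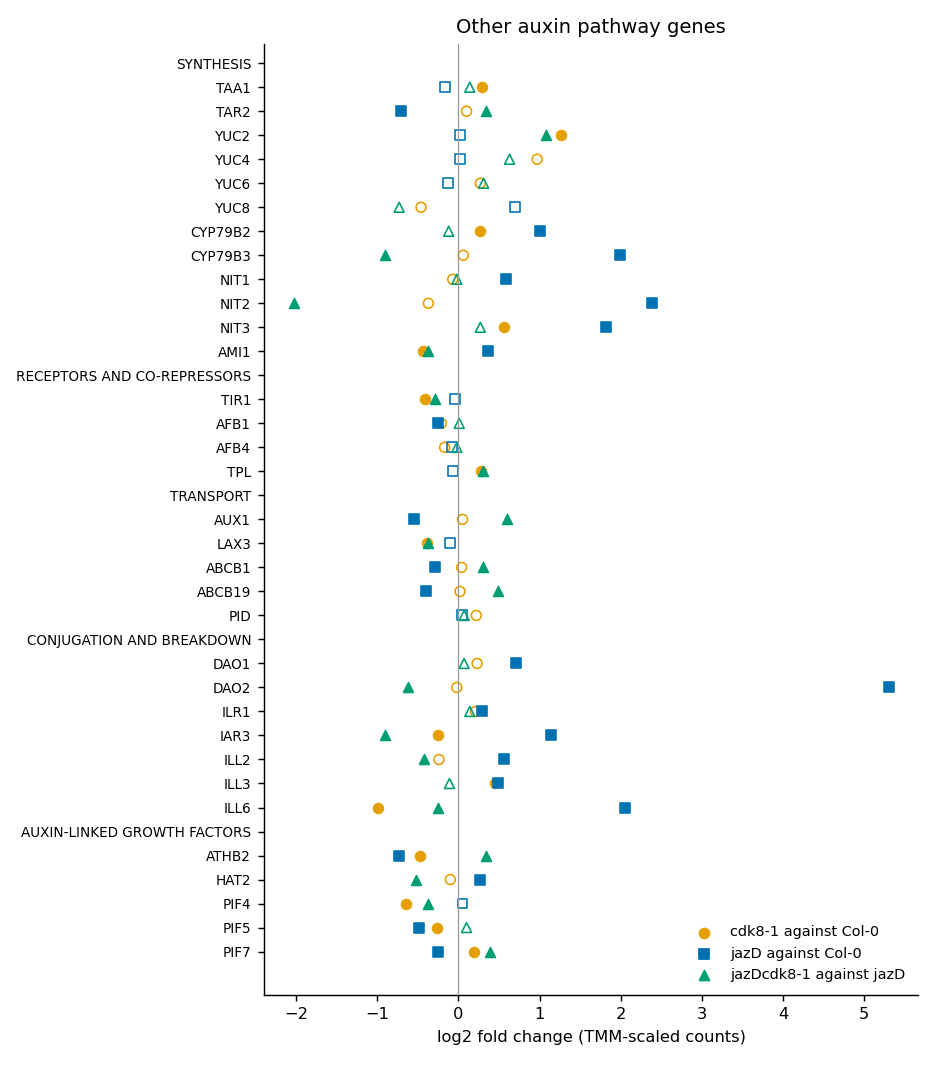
Log2 fold change of the 33 tested auxin pathway genes outside the text rule in 3 comparisons, grouped by role. Filled symbols were called and open symbols were not; DAO2, with few counts in Col-0, has the widest change, at 5.30 in jazD.

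Clock genes also differed between genotypes. All 8 clock genes were called in jazD, 4 in each direction, where 42.8% of all genes were called. CCA1 stood at -1.58, PRR9 at -1.77 and ELF4 at 2.07 on the log2 scale. In cdk8-1 against Col-0, 1 rose and 5 fell (75%, against 25.5% of all genes), with LHY at 0.62 and ELF4 at -1.20. In jazDcdk8-1 against jazD, 3 rose and 4 fell (87.5%, against 35.8% of all genes). Many SAUR, Aux/IAA and PIF genes cycle over the day. The part of these signals in the results was not tested.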

How the data were processed

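RNA from 12 rosette pools was sequenced. The submitters' processing notes name RSEM 1.2.25 and the TAIR10 genome. Per the file headers, the authors deposited expected counts and TPM per gene, both from RSEM with default parameters; 3.42% of the expected counts were not whole, and all were rounded here. RSEM divides reads among near-identical copies by estimate, which affects the SAUR clusters.

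Genes passing edgeR's filterByExpr were tested with edgeR 4.0.16 (R 4.3.3) by the quasi-likelihood test, with TMM scaling (factors 0.954 to 1.06) and 1 fit over all 4 genotypes, and p-values were Benjamini-Hochberg adjusted over 19059 genes. The SE of a fold change is its size divided by the square root of F, an approximation. Depth was 17583467 to 21030374 counts. The labels do not say whether replicate numbers pair libraries, and the main fit had no replicate block. Alternatives used limma 3.58.1, DESeq2 1.42.0, other scalings and filters, and fits without 1 library. Promoters and coding sequences came from RefSeq TAIR10.1.

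The members and lists were chosen with earlier results of these data known. Named genes were a fixed set of well-known auxin genes plus, for each family in each comparison, the called genes with the widest change (at most 4, with 1 CPM or more in a genotype compared). Others named, such as SAUR14, SAUR15, SAUR20, SAUR21, SAUR32, SAUR51, SAUR60, SAUR62, SAUR64, SAUR65, LAX1 and AFB5, and the genes of the companion list, were chosen after their values were seen.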

Additional observations from a re-analysis of the deposited data

Results flagged for a closer look

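For 29 auxin genes, losing CDK8 had a different effect in jazD than in plants with intact JAZ genes, by the interaction term of edgeR's quasi-likelihood test. Each value is the log2 effect in jazD minus that in Col-0.

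Among SAUR genes the difference was 1.43 for SAUR22, 1.27 for SAUR23, 1.01 for SAUR21, 0.72 for SAUR20 and 0.27 for SAUR16. It was -0.59 for SAUR78, -1.07 for SAUR72, -1.28 for SAUR41, -1.30 for SAUR71, -1.86 for SAUR70, -3.64 for SAUR42 and -3.75 for SAUR13, a scarce gene. Among ARF genes it was 0.54 for ARF11, 0.38 for ARF18, -0.30 for ARF7 and -0.31 for ARF4. The only Aux/IAA gene was IAA2 at -0.37. The GH3 genes were GH3.6 at -0.35, GH3.10 at -0.62, GH3.3 at -0.85 and AT5G51470 at -4.08.

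Among the other members it was 0.59 for AT4G12980, 0.52 for AFB5 and 0.33 for PIN7. It was -0.45 for AT1G56220, -0.49 for DRM2, -0.62 for PILS3, -0.71 for AT5G35735 and -0.83 for PILS5. Of the 29, 16 kept the call in all 20 alternatives that refitted the data, among them SAUR20 to SAUR23, ARF11, SAUR71, GH3.10 and AT5G51470. The call was lost in 15 of the 20 for ARF18, 11 for SAUR72, 10 for GH3.6, 9 for IAA2 and for DRM2, 8 for SAUR16, 5 for ARF4, 4 for GH3.3 and 3 for PILS5. It was lost in 2 each for ARF7, SAUR13, SAUR42 and SAUR70.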

How the results depend on the processing

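No call of an auxin gene reversed in any of 20 refits. The calls held in all of them for 24 of 47 genes in cdk8-1 against Col-0, 36 of 50 in jazD against Col-0, 42 of 57 in jazDcdk8-1 against jazD, 35 of 54 in jazDcdk8-1 against Col-0 and 16 of 29 interactions. In jazDcdk8-1 against jazD, 37 members were higher with limma on log2(TPM + 1) and 38 with log2(TPM + 0.1), against 24 from counts. Of the called members, 56.9% and 58.5% were then higher, against 42.1% from counts. Of all called genes, 75.7% and 76% were higher on those scales, against 47.1% from TMM-scaled counts. The shift was thus not particular to auxin genes. Counts scaled by library total alone also shifted the split. In jazDcdk8-1 against jazD they gave 29 higher and 27 lower members, with 63.5% of all called genes higher. In cdk8-1 against Col-0 they gave 29 and 21, with 66.8% of all called genes higher. With log2(TPM + 0.1), 11 interactions were lower, against 19. Of all called interactions, 61.7% were then higher, against 49.3% from counts. The cause was not tested.

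Leaving out each library gave 16 to 23 higher and 19 to 28 lower members in cdk8-1, and 20 to 26 and 22 to 32 in jazD. It gave 20 to 26 and 28 to 34 in jazDcdk8-1 against jazD, 18 to 25 and 25 to 31 in jazDcdk8-1 against Col-0, and 8 to 12 and 14 to 19 for the interaction. Leaving out the chromosome 5 stretch kept 21 and 32 in jazDcdk8-1 against jazD.

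Same-numbered libraries did not deviate together: over 18 pairs the correlation ran from -0.0583 to 0.0508. With the replicate block, 21 members were higher and 25 lower in cdk8-1, 22 and 26 in jazD, 25 and 33 in jazDcdk8-1 against jazD, 23 and 29 in jazDcdk8-1 against Col-0, and 10 and 19 for the interaction. Few counts limit the fold changes of SAUR13, SAUR42, SAUR52, AT5G51470 and, outside the members, DAO2.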
